A study of Mus musculus with 3 samples.

Results

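The Slc30 family encodes zinc transporters (ZnT proteins), and the 10 mouse genes Slc30a1 to Slc30a10 were followed here by name through 3 libraries of sorted small intestinal cells. All 10 had at least 1 matched transcript, among 23963 genes with a match. Most ZnT proteins move zinc out of the cytosol, either across the plasma membrane or into organelles and secretory vesicles. In the gut, absorptive cells pass dietary zinc to the blood, Paneth cells keep zinc in their granules, and many brush border and secreted enzymes need zinc as a cofactor. In pancreatic beta cells, ZnT8 loads insulin granules with zinc, which makes the family of interest in gut endocrine cells that share much of the islet programme.

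The data were polyadenylated RNA of C57BL/6 mice, taken from villi of the upper small intestine, and each group is 1 library made from pooled RNA. GIP-GFP cells came from a reporter line that marks cells expressing the incretin hormone GIP. Ngn3-TOMATO cells came from male mice that carried Neurogenin3 (Ngn3)-Cre and a ROSA26-LoxP-STOP-LoxP-tomato indicator, so that any cell whose progenitor once expressed Neurogenin 3 stays labelled, and Ngn3-negative cells were tomato-negative cells of such mice. The tomato sorts also left out cells that stained for the blood cell marker CD45; no such gate is stated for the GFP sort, and its summed lymphocyte markers were 334.9, against 55.9 for Ngn3-TOMATO and 139.3 for Ngn3-negative. The sources used here give neither ages nor the number of mice per pool. The Ngn3-TOMATO label follows lineage and not current endocrine state.

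The labelled cell types were checked first. Gip itself stood at 241624 scaled FPKM in GIP-GFP cells, 28042 in Ngn3-TOMATO cells and 730.2 in Ngn3-negative cells. Scaled FPKM are the deposited FPKM summed per gene and divided by 1 common number, so that a library holds 1000000 on average; being per transcript length, they can be compared between genes. The summed level of 7 Paneth cell markers was 2342 in GIP-GFP cells, 27455 in Ngn3-TOMATO cells and 4870 in Ngn3-negative cells, and that of 7 goblet cell markers was 6017, 170825 and 34374, although the goblet gene Fcgbp had no usable value in Ngn3-TOMATO. The Ngn3-TOMATO library held more goblet and Paneth transcripts than the sort meant for non-endocrine cells. The sum over 8 enterocyte markers was 9393, 7648 and 39055 in that order, with none of the 8 at 0 in any library; Anpep and Sis among them had transcripts with status LOWDATA or FAIL, so that their values are less certain. Depth was 592.1 Mb of read bases in GIP-GFP cells, 1380 Mb in Ngn3-TOMATO cells and 1030 Mb in Ngn3-negative cells. Since no library was repeated, there is no test and no replicate check of any difference: intervals are 95% counting intervals within these libraries. In pooled samples, fewer cells of a type and less RNA per cell cannot be told apart.

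The promoters of 3 members and of the metallothionein gene Mt1 are printed because zinc itself can switch on zinc genes through the factor MTF1, which binds short metal response elements. Slc30a1 and the metallothioneins are textbook targets of it. Slc30a2 and Slc30a10 are shown as the members that differed most between the libraries. Each window holds 250 bases before and 50 after a RefSeq transcription start on GRCm38.p6 (mm10), on the + strand. Capitals mark the cores TGCACNC and TGCGCNC on either strand, and matches can overlap.
Slc30a1, chr1:191906531-191906830: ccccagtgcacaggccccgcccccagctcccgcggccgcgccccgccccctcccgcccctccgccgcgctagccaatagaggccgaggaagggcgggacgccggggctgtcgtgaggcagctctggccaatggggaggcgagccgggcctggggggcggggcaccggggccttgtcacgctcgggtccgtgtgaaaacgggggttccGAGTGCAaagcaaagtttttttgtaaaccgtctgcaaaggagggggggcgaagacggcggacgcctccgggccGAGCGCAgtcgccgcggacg
Slc30a2, chr4:134343216-134343515: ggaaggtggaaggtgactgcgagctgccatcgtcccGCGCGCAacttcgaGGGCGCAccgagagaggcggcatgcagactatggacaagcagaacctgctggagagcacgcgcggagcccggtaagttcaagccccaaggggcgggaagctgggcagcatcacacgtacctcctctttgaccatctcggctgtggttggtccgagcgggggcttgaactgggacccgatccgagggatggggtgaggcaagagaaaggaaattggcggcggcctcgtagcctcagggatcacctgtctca
Slc30a10, chr1:185454598-185454897: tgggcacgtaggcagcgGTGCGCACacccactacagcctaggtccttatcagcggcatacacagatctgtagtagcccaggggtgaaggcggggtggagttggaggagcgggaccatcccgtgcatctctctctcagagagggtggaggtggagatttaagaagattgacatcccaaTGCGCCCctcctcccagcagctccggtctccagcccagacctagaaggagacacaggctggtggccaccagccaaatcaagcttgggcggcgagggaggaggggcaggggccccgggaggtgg
Mt1, chr8:94178839-94179138: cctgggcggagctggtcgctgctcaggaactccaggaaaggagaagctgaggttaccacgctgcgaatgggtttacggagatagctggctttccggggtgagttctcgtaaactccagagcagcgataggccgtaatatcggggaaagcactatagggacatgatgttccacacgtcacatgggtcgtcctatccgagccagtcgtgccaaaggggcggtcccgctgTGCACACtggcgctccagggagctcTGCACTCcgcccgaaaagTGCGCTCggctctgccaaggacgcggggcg
A core was found in 6 of the 10 windows of the 9 members that had a sequence (Slc30a3 has 2 windows, 1 of them with a core), and 25.7% of all 32851 windows of this length held one. Slc30a1 and Slc30a2 held 2 cores each, Slc30a4, Slc30a10 and Mt1 held 3, and 7.11% of all promoters held 2 or more. In Slc30a1 the matches began 43 bases before (position -43) and 30 bases after the start, and in Mt1 at -23, 2 and 20. In Slc30a2 they lay farther upstream, at -214 and -200, and in Slc30a10 at -233, -232 and -73, the first pair overlapping. The Slc30a2 window lies downstream of the start of the UCSC model uc008veu.2 (134343046) and upstream of that of uc008vev.2 (134343709). A match describes these letters and not a bound site.

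Summed over its members, the family was lower in both reporter libraries than in the negative sort, though not every member was (below). Its summed level was 216.8 scaled FPKM in GIP-GFP cells, 243.6 in Ngn3-TOMATO cells and 359.3 in Ngn3-negative cells, and without Slc30a10, whose value in Ngn3-negative is uncertain (below), 212.3, 239.2 and 327.4. Slc30a5 was the most abundant member in every library, with 30.2%, 27.5% and 31.8% of these sums. Slc30a9 and Slc30a4 followed in each library, Slc30a9 ahead in GIP-GFP and Slc30a4 ahead in Ngn3-negative, while in Ngn3-TOMATO their counting intervals did not separate them. Slc30a6 and Slc30a7 were not separated in the reporter libraries, nor were Slc30a7 and Slc30a1 in Ngn3-negative. Slc30a8 and Slc30a3 were at the bottom of all 3 orders.

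**Figure D1:**
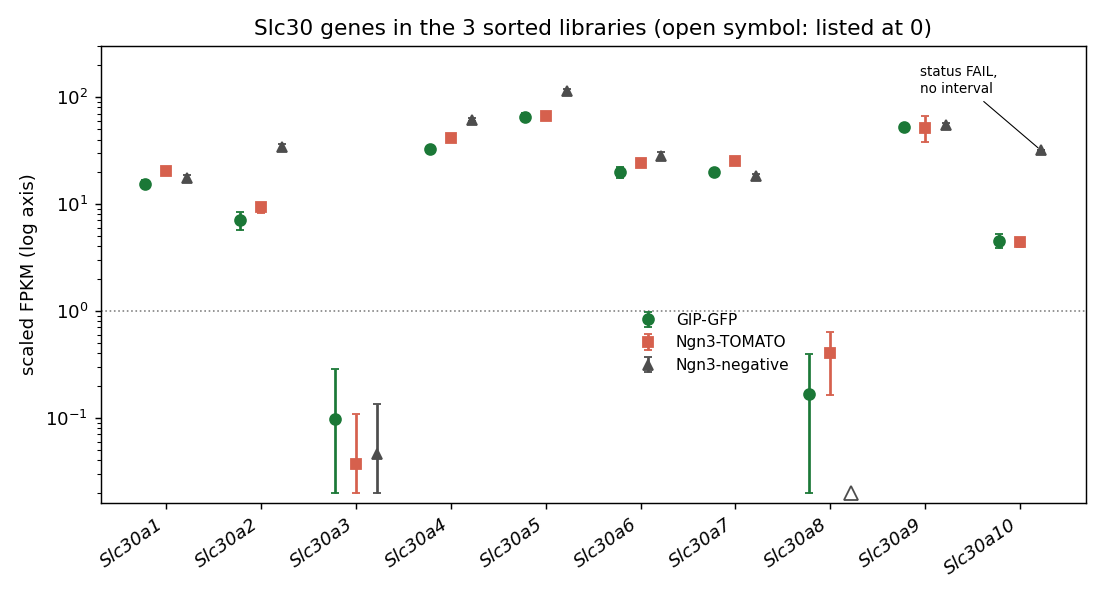
Scaled FPKM (log axis) of the 10 Slc30 genes in GIP-GFP (circles), Ngn3-TOMATO (squares) and Ngn3-negative (triangles), 1 pooled library each. Bars are 95% counting intervals, drawn no lower than 0.02, the dotted line is the filter of 1 scaled FPKM, and the open triangle marks Slc30a8, listed at 0; Slc30a2 and Slc30a10 show the widest gaps between the negative and the reporter libraries.

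Slc30a8 (chr15:52295553-52335733), which encodes the ZnT8 of insulin granules, was close to absent from all 3 libraries. It stood at 0.165 ± 0.229 scaled FPKM in GIP-GFP and 0.400 ± 0.236 in Ngn3-TOMATO, and it was listed at 0 in Ngn3-negative. These values correspond to about 2 fragments in GIP-GFP and 11 in Ngn3-TOMATO, estimated from the deposited limits. No fold is given against a library at 0, and between the reporter libraries the intervals overlap. Other genes of the islet granule were abundant in the same cells. Iapp, the amylin precursor, stood at 565.9 in GIP-GFP and 527.1 in Ngn3-TOMATO, and Pcsk1, a prohormone convertase, at 427.2 and 577.1. Of 15 islet granule genes, 12 of 12 compared were at least 2-fold higher in GIP-GFP than in Ngn3-negative, and 14 of 14 in Ngn3-TOMATO. Over all genes the shares were 21.1% and 19.2%. Ins1 and Ins2, listed at 0 in Ngn3-negative, were compared only through their level in Ngn3-TOMATO and could only count as higher. Pcsk2, at 0.0174 in Ngn3-negative, was likewise compared only through the reporter libraries. Slc30a8 and the glucose-6-phosphatase gene G6pc2 were the genes of this kind that did not reach 1 scaled FPKM in any library. Ins2, which encodes insulin, was listed at 0 in GIP-GFP and Ngn3-negative and stood at 55.6 in Ngn3-TOMATO. Slc30a3 (chr5:31086106-31093527), whose protein fills synaptic vesicles with zinc, was at 0.0971, 0.0367 and 0.0459 across GIP-GFP cells, Ngn3-TOMATO cells and Ngn3-negative cells, which is about 1.00 fragment in each library. Neither gene entered the comparisons, limited to genes that reached 1 scaled FPKM in either library of a pair.

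Ngn3-TOMATO was first set against Ngn3-negative, a comparison meant to set the endocrine lineage against other epithelium, though summed goblet markers exceeded enteroendocrine ones (82785) in the tomato-positive library. Of the 8 members compared, none was at least 2-fold higher, where 19.2% of all 13390 genes were, and 2 were at least 2-fold lower, where 9.94% were. The median log2 ratio over the 8 was -0.39, beside 0.03 over all genes. It was -0.14 with no filter on low values, -0.62 with libraries scaled to equal totals and -0.21 without Slc30a10, whose quantification failed in Ngn3-negative and without which 1 member was lower by 2-fold. Ratios are taken after adding 1 to each value, which draws those of low genes toward 0. The members lower by 2-fold were Slc30a2 and Slc30a10. Slc30a7 and Slc30a1 had ratios above 0, the latter only just and below 0 when libraries were scaled to equal totals.

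For GIP-GFP against Ngn3-negative, which shares its reference library with the first comparison, the picture of the members was similar. None of the 8 was at least 2-fold higher (21.1% of all 13413 genes) and 2 were at least 2-fold lower (13.8% of all genes), again Slc30a2 and Slc30a10. The median log2 ratio was -0.64, beside 0.07 over all genes, and -0.34 with no filter on low values; without Slc30a10, 1 member was lower by 2-fold. Under equal totals, Slc30a4 and Slc30a5 also passed 2-fold, at -1.09 and -1.003. Between the reporter libraries, GIP-GFP against Ngn3-TOMATO, no member was past 2-fold, where 8.04% of 13679 genes were higher and 8.76% lower. The median log2 ratio of the members was -0.30 beside 0.08 over all genes. The members that differed most there were Slc30a1 at -0.40 (-0.54 to -0.26) and Slc30a2 at -0.34 (-0.62 to -0.06).

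**Figure D2:**
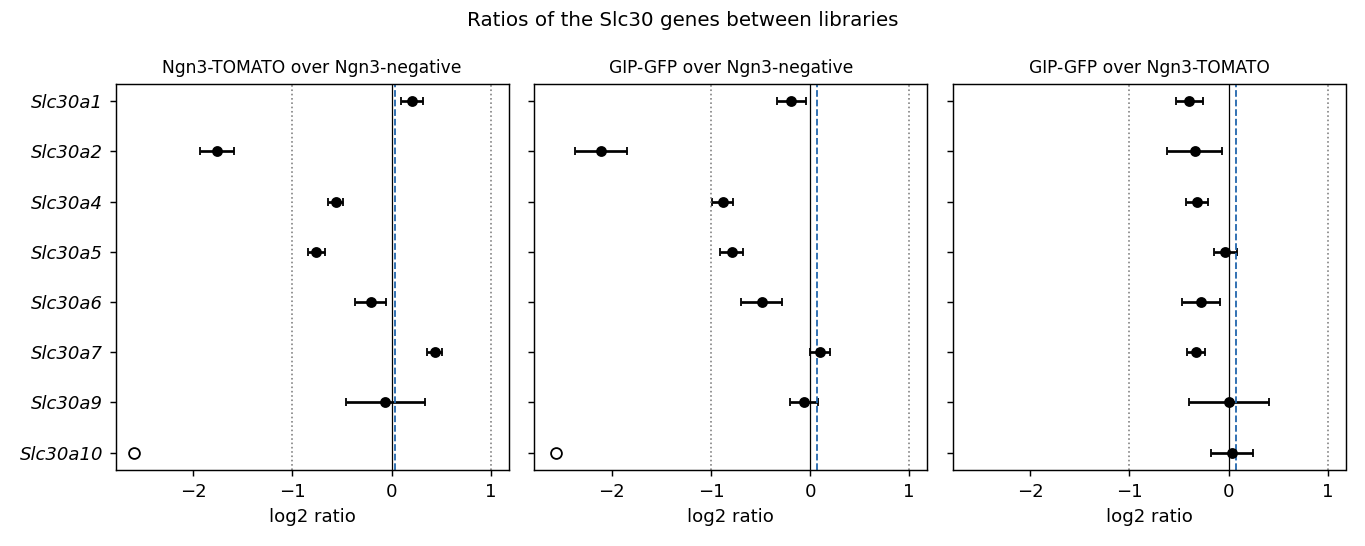
Log2 ratios of the 8 Slc30 genes that reached 1 scaled FPKM, in 3 comparisons of libraries, with 95% counting intervals. Open circles (Slc30a10) have no interval because the quantification failed in Ngn3-negative; dotted lines mark 2-fold and the dashed line the median over all genes. Slc30a2 and Slc30a10 lie past 2-fold against Ngn3-negative, and no gene does between GIP-GFP and Ngn3-TOMATO.

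Slc30a2 (chr4:134343046-134354484) encodes ZnT2, which fills vesicles and granules with zinc and is known from mammary gland, pancreatic acini and Paneth cells. It stood at 7.11 ± 1.36 scaled FPKM in GIP-GFP cells, 9.28 ± 0.983 in Ngn3-TOMATO cells and 33.9 ± 2.41 in Ngn3-negative cells. The negative library was far above both reporter libraries, whose intervals overlap. The log2 ratio to Ngn3-negative was -1.76 (-1.93 to -1.59) for Ngn3-TOMATO and -2.11 (-2.37 to -1.84) for GIP-GFP. It remained past 2-fold under each of the 10 other settings tried. Several of these, such as dropping the filter on low values or leaving out failed genes, could not alter the ratios of Slc30a2. Both annotated transcripts, whose starts lie 663 bases apart, were lower in the reporter libraries, and uc008vev.2 made up 65.9% of the gene in Ngn3-negative, 51.8% in Ngn3-TOMATO and 53.3% in GIP-GFP. The summed Paneth markers ran the other way between the tomato sorts: 7 of 7 markers were higher by 2-fold or more in Ngn3-TOMATO, with Lyz1, which encodes lysozyme, at 6984 against 1171. In GIP-GFP 4 of the 7 were at least 2-fold lower than in Ngn3-negative. Enterocyte markers ran with Slc30a2: 7 of 8 were at least 2-fold lower in Ngn3-TOMATO and 8 of 8 in GIP-GFP, with medians of -2.51 and -2.19. Pancreatic acinar markers did too, summing to 4.97, 6.12 and 177.3 across GIP-GFP cells, Ngn3-TOMATO cells and Ngn3-negative cells. All 5 were lower by more than 2-fold in both reporter libraries, with the elastase gene Cela2a listed at 0 there. However, Cpa1, Prss2 and Cela2a were under 1 scaled FPKM in both reporter libraries. They were compared only through Ngn3-negative and could not count as higher. Enterocyte and acinar markers were not the only marker lists that were lower. Of 4 matched erythroid markers, 3 were at least 2-fold lower in both reporter libraries, with medians of -1.91 (Ngn3-TOMATO) and -2.70 (GIP-GFP). Of 4 stem cell markers, 1 was lower by that much in Ngn3-TOMATO and 3 in GIP-GFP, with medians of -0.95 and -2.15. The background share of such lower genes was 9.94% for Ngn3-TOMATO and 13.8% for GIP-GFP. The part of any of these cell types in the Slc30a2 values was not tested. Of 10350 genes at 10 scaled FPKM or more in a library, 49 lay within 0.25 of its pair of log2 ratios to Ngn3-negative. The nearest were Ugt2b35, Sp5, Slc22a4, Epha1 and Ctrl, at distances from 0.0193 to 0.0587 over the 3 libraries.

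Slc30a10 (chr1:185454848-185468761) encodes a transporter that exports manganese, and people with mutations in it accumulate that metal. It stood at 4.54 ± 0.675 scaled FPKM in GIP-GFP and 4.41 ± 0.431 in Ngn3-TOMATO, whose intervals overlap. In Ngn3-negative it was listed at 31.8, with the status FAIL on both of its transcripts and limits that cannot be used. The read bases behind these values were 7306, 17106 and 93527. The log2 ratio to Ngn3-negative was -2.60 for Ngn3-TOMATO and -2.57 for GIP-GFP, with no interval. The transcripts share both ends and differ by 38 bases in length; all signal was put on uc007dzk.1 in the reporter libraries and on uc007dzl.1 in Ngn3-negative. The split cannot be read, and the sum over both was used. Of 70 genes with this status in Ngn3-negative and not in Ngn3-TOMATO, 6 were at least 2-fold lower in Ngn3-TOMATO and 2 higher. Over all genes 9.94% were lower and 19.2% higher. The median log2 ratio of the 70 was -0.16, beside 0.03 over all genes. Of 93 such genes for GIP-GFP, 12 were lower and 7 higher, where 13.8% and 21.1% of all genes were. Their median was -0.11, beside 0.07. In both comparisons, higher genes were scarcer among those with this status than over all genes. The genes with the most similar pair of ratios, chosen after the values were seen, were Cyp3a13, Exoc3l4, Slc2a2, Cyp1a1 and Xdh, at distances from 0.0502 to 0.125. Of 10350 genes searched, 26 lay within 0.25, and the search used the failed value of Slc30a10 in Ngn3-negative. Slc2a2 encodes the glucose transporter GLUT2 and stood at 32.4, 34.96 and 212.0 across GIP-GFP cells, Ngn3-TOMATO cells and Ngn3-negative cells.

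Of the transporters of the early secretory pathway, Slc30a5 led the family, and Slc30a6 and Slc30a7 ranked below Slc30a9 and Slc30a4 in each library. ZnT5, encoded by Slc30a5 (chr13:100802648-100833427), works as a pair with ZnT6, encoded by Slc30a6 (chr17:74395608-74424229). ZnT7, encoded by Slc30a7 (chr3:115938973-116007406), acts beside them, and together they supply zinc to enzymes such as the alkaline phosphatases. Slc30a5 stood at 65.5 ± 4.597 scaled FPKM in GIP-GFP cells, 67.0 ± 2.998 in Ngn3-TOMATO cells and 114.1 ± 4.70 in Ngn3-negative cells. The reporter libraries overlapped and lay below the negative library, at log2 ratios of -0.79 (-0.91 to -0.68) and -0.76 (-0.85 to -0.67). Slc30a6 stood at 19.7 ± 2.38, 24.1 ± 1.72 and 28.1 ± 2.54 in the same order, with a ratio of -0.49 (-0.70 to -0.28) for GIP-GFP and -0.21 (-0.37 to -0.05) for Ngn3-TOMATO. Both ratios rest on the transcript uc012axd.2, 15 bases longer than the main model, which held 25.5% of the gene in Ngn3-negative and nothing in the reporter libraries; with the main model alone they were -0.08 for GIP-GFP and 0.19 for Ngn3-TOMATO. Slc30a7 stood at 19.7 ± 1.11, 24.99 ± 0.831 and 18.2 ± 0.830, highest in Ngn3-TOMATO, with ratios of 0.43 (0.36 to 0.51) for Ngn3-TOMATO and 0.10 (0.00432 to 0.203) for GIP-GFP, which was -0.10 under equal totals. A shorter Slc30a5 transcript, uc007rrq.1, which starts 18661 bases downstream of the full one, made up 35.2%, 29.6% and 39.1% of the gene.

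The phosphatases that these transporters serve were themselves split by cell sort. Alpi, the intestinal alkaline phosphatase, stood at 223.4, 219.3 and 1430 scaled FPKM across GIP-GFP cells, Ngn3-TOMATO cells and Ngn3-negative cells, and Akp3, a close relative, at 57.2, 88.1 and 672.7. Alpl, the tissue-nonspecific form, ran opposite, at 243.2, 15.8 and 0.431. The differences of Slc30a5, Slc30a6 and Slc30a7 from Ngn3-negative were under 2-fold, and those of these 3 phosphatases over 4-fold. A further listed alkaline phosphatase was under 4-fold in GIP-GFP, at a log2 ratio of -1.71. Alpi also served as an enterocyte marker, so its split is not separate from that of the enterocyte markers. Of 15 zinc enzymes of the secretory pathway, 9 were at least 2-fold lower and 4 at least 2-fold higher in Ngn3-TOMATO than in Ngn3-negative, with a median log2 ratio of -1.61. In GIP-GFP 9 of 14 were lower and 2 higher, with a median of -1.66. Anpep, counted as lower in both comparisons, rests on a transcript with status LOWDATA in every library, so its value is less certain. The shares over all genes were 9.94% lower and 19.2% higher for Ngn3-TOMATO, and 13.8% and 21.1% for GIP-GFP, so that the counts of higher enzymes are not far from the background. Cpe, which trims prohormones and needs zinc, was the most abundant at 5306 in GIP-GFP cells, 1564 in Ngn3-TOMATO cells and 28.9 in Ngn3-negative cells.

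ZnT4, encoded by Slc30a4 (chr2:122681239-122702663), sits in endosomes and lysosomes and is the gene mutated in lethal milk mice. It stood at 32.8 ± 2.24 scaled FPKM in GIP-GFP cells, 41.2 ± 1.67 in Ngn3-TOMATO cells and 61.3 ± 2.27 in Ngn3-negative cells, with no overlap between the intervals. The log2 ratio to Ngn3-negative was -0.88 (-0.99 to -0.77) for GIP-GFP and -0.56 (-0.64 to -0.49) for Ngn3-TOMATO. Its transcripts differ by 147 bases and share both ends. The longer, uc008mba.1, held 78.7% of the gene in Ngn3-negative, 54.3% in Ngn3-TOMATO and 50.8% in GIP-GFP, and it carried the difference: it stood at 48.3, 22.4 and 16.7. The shorter, uc012ccz.1, stood at 13.1, 18.8 and 16.2 in the same order, lowest in Ngn3-negative. Such splits depend on how shared reads were divided by the quantification.

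**Figure D3:**
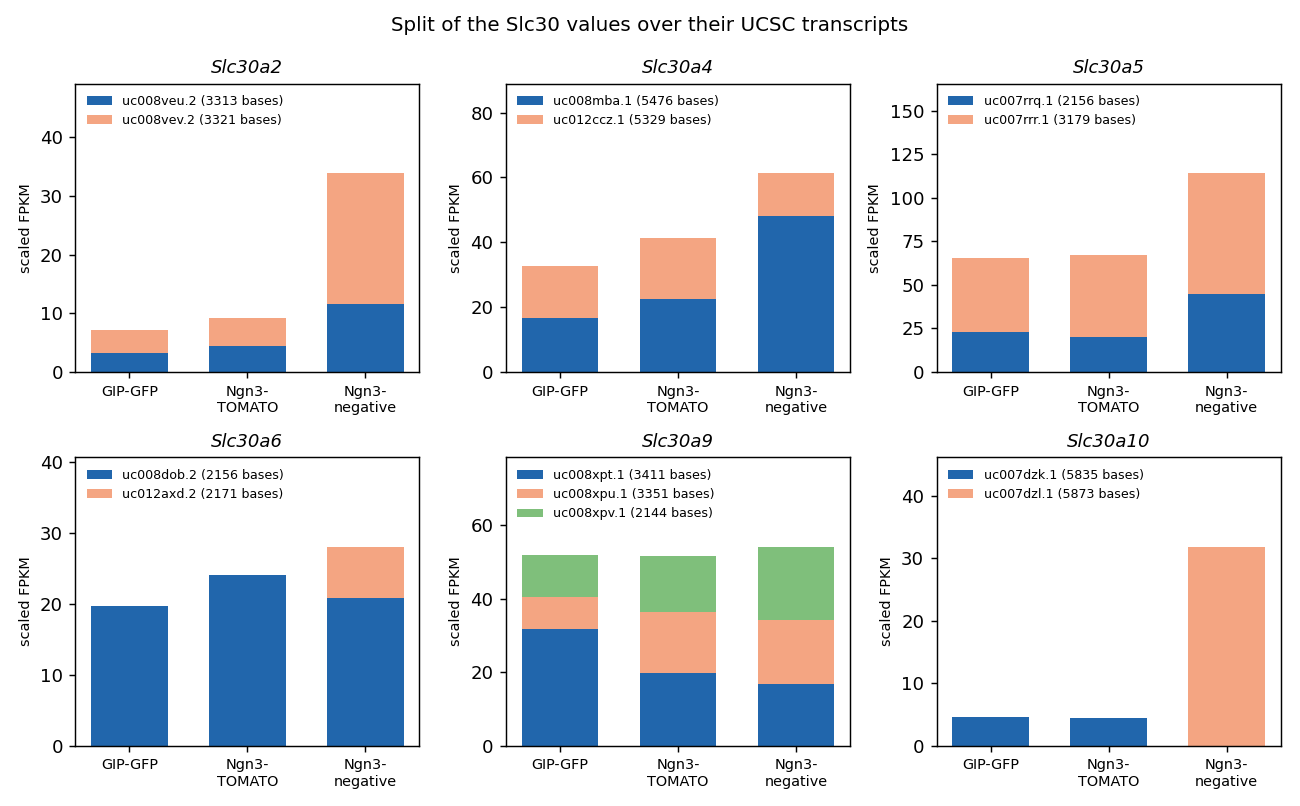
Stacked scaled FPKM of the UCSC transcripts of 6 Slc30 genes across GIP-GFP cells, Ngn3-TOMATO cells and Ngn3-negative cells; transcripts at 0 in all libraries are left out. The longer Slc30a4 model stands at 48.3 in Ngn3-negative and 16.7 in GIP-GFP, the shorter at 13.1 and 16.2, and Slc30a10 is placed on different models in the negative and the reporter libraries.

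Slc30a1 and Slc30a9 differed by less than 2-fold in each comparison. ZnT1, encoded by Slc30a1 (chr1:191906781-191913247), exports zinc through the plasma membrane and stood at 15.3 ± 1.35 scaled FPKM in GIP-GFP cells, 20.5 ± 1.02 in Ngn3-TOMATO cells and 17.6 ± 1.11 in Ngn3-negative cells. Its log2 ratio to Ngn3-negative was -0.19 (-0.34 to -0.04) for GIP-GFP and 0.21 (0.10 to 0.32) for Ngn3-TOMATO, the latter -0.02 under equal totals. Its start overlaps 1700034H15Rik on the other strand, as that of Slc30a10 overlaps Gm2061, and the sources used here state no use of strand, so that reads in the overlaps cannot be told apart. The product of Slc30a9 (chr5:67306957-67356145) is reported to act on mitochondrial zinc. It stood at 51.9 ± 3.96, 51.8 ± 14.2 and 54.1 ± 3.31, and all of its intervals overlapped. Its 3 transcripts were split unevenly, with uc008xpt.1 at 61.0% of the gene in GIP-GFP and 38.3% and 31.1% in the other libraries. Of these, uc008xpv.1 was assigned to Slc30a9 through its shared end with the longer models.

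Among the zinc importers of the Slc39 (ZIP) family, which bring zinc into the cytosol, members went both ways. Of 12 compared of 14 listed, 4 were at least 2-fold higher and 1 lower in Ngn3-TOMATO, with a median log2 ratio of 0.16, and 2 were higher and 4 lower in GIP-GFP, with a median of -0.43. Over all genes the shares were 19.2% higher and 9.94% lower in the former and 21.1% and 13.8% in the latter, so that 2 of 12 higher and 1 of 12 lower are near the background. Slc39a7 had no matched transcript of its own. Slc39a3, counted among the 12 and under 2-fold, had a transcript with status LOWDATA in every library, so its value is less certain. Slc39a5, the most abundant in Ngn3-negative, stood at 57.3 scaled FPKM in GIP-GFP cells, 71.3 in Ngn3-TOMATO cells and 209.8 in Ngn3-negative cells, and Slc39a4, the importer of dietary zinc at the enterocyte surface, at 79.8, 99.3 and 177.3, above Slc39a5 in both reporter libraries. Slc39a6 was higher in both reporter libraries, at 19.8 and 16.4 against 2.50, and so was Slc39a13, at 24.6 and 15.0 against 4.43. Slc39a8, which carries zinc and manganese, stood at 5.65 in GIP-GFP cells, 40.1 in Ngn3-TOMATO cells and 14.8 in Ngn3-negative cells. Between the reporter libraries its log2 ratio was -2.63 (-2.89 to -2.36). The summed goblet, Paneth and tuft markers have the same order over the libraries. The summed enterochromaffin markers do so only through Reg4, at 103.6 in GIP-GFP and 182.0 in Ngn3-negative. Tph1, Slc18a1, Tac1 and Lmx1a stood higher in GIP-GFP than in Ngn3-negative. The part of these cell types in the Slc39a8 values was not tested.

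Of 7 genes that buffer and sense zinc, 2 were at least 2-fold higher and 2 lower in Ngn3-TOMATO among 6 compared, where 19.2% and 9.94% of all genes were. In GIP-GFP, leaving out Tmem163, whose value is not usable, 2 of 6 were higher and 2 lower, where 21.1% and 13.8% of all genes were. Mt4, listed at 0 in Ngn3-negative, was among the higher genes in both comparisons and could not count as lower. Mt1, which encodes the main metallothionein, stood at 281.6 scaled FPKM in GIP-GFP cells, 185.5 in Ngn3-TOMATO cells and 337.8 in Ngn3-negative cells, under 2-fold in each comparison, and Mt2 followed at 51.2, 41.6 and 65.2. Mt3, a form known from brain, was higher in GIP-GFP, at 25.5 against 5.23 and 1.23, as was Mt4, a form of squamous epithelium, at 16.7 against 1.54, and listed at 0 in Ngn3-negative. Mtf1 summed to 12.2, 9.65 and 32.0. Of the value in Ngn3-negative, 21.2 came from a model of 814 bases that was at 0 in the reporter libraries, and 5.77 and 4.97 from full-length models. The reporter values came from a full-length model alone, at 12.2 in GIP-GFP and 9.65 in Ngn3-TOMATO. Mtf1 thus counted as lower only through the model of 814 bases. Gpr39, a zinc-sensing receptor, stood at 14.9, 10.9 and 34.2. Tmem163, a vesicular zinc transporter outside the Slc30 family, was listed at 33.9 in GIP-GFP and at 0 in the others, but its transcript had the status LOWDATA in all 3 libraries and the value is not read further.

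**Figure D4:**
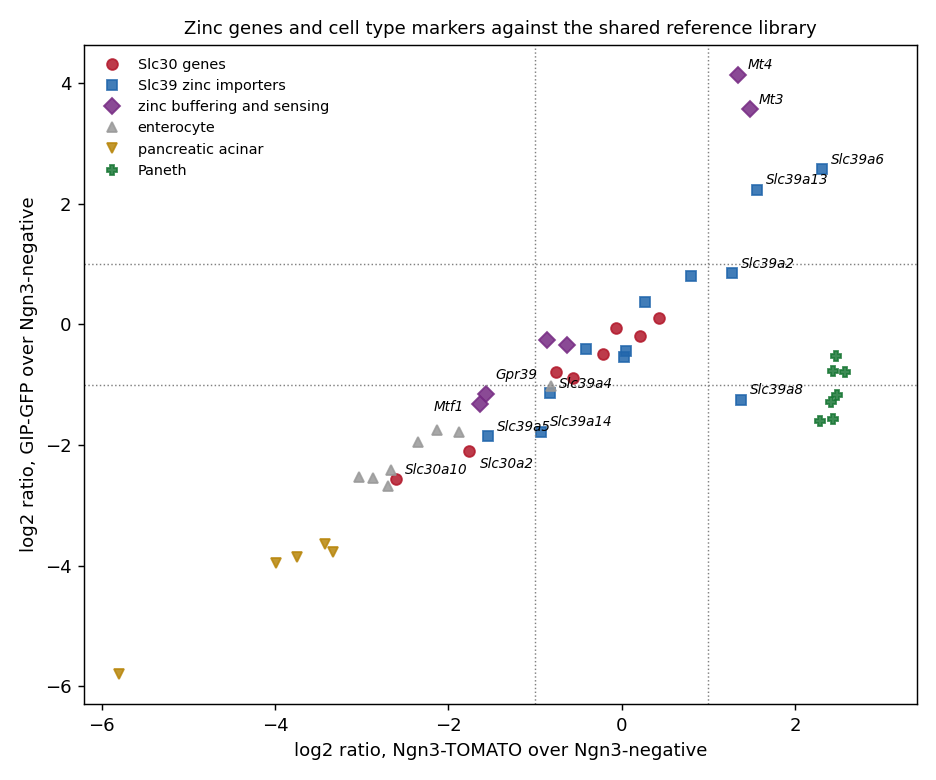
Log2 ratio to Ngn3-negative in Ngn3-TOMATO (x axis) and in GIP-GFP (y axis) for the Slc30 genes, the Slc39 importers, genes of zinc buffering and sensing, and markers of enterocytes, pancreatic acini and Paneth cells; the axes share the Ngn3-negative library and dotted lines mark 2-fold. Slc30a2 and Slc30a10 lie near the enterocyte markers and away from the Paneth markers. Mt3, Mt4, Slc39a6 and Slc39a13 lie past 2-fold on the higher side of both axes. Slc39a5, Mtf1 and Gpr39 lie past 2-fold on the lower side of both, as do Slc30a2 and Slc30a10.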

How the data were processed

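The authors deposited 59120 UCSC transcripts per library, each with a coverage (mean read depth per base), an FPKM with lower and upper limits, and a status, per the file headers. FastQC, TopHat 1.5.0 and Cufflinks on mm10 are named in the submitters' processing notes. The deposited FPKM sum to between 1.02e10 and 1.07e10 per library, so their library term is not given by the usual definition, and no depth was taken from them. Symbols came from GENCODE M21, matched to the transcripts without strand by their ends (within 5 bases), span and spliced length, and 51351 received a symbol, 409 of them through an end shared with a matched transcript. Mitochondrial transcripts, transcripts under 200 bases and genes with status HIDATA (too many reads) were left out. FPKM were summed per symbol and divided by 8144. Log2 ratios used a pseudocount of 1 and genes at 1 or more in a library of the pair; standard errors were the distance to the upper limit divided by 2. The ratio code was tested on simulated data. Members and lists were chosen with earlier results of these data known. Members were named in full; other lists by members past 4-fold and the most abundant, or as a clause states. Python 3.11.15, numpy 2.4.6, pandas 2.3.3 and matplotlib 3.10.9 were used. 1 gene among the zinc enzymes is not reported here by name.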

Additional observations from a re-analysis of the deposited data

How the results depend on the processing

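Each ratio was recomputed under 10 other settings; leaving out genes with status FAIL was chosen after seeing the data. No paired analysis was possible because each group has 1 library. The median log2 ratio of the members, Ngn3-TOMATO over Ngn3-negative, was -0.14 with no filter on low values, -0.62 with equal totals, -0.25 with equal totals without the 50 most abundant genes, -0.27 with the median ratio, -0.18 with the most abundant transcript and -0.21 without failed genes. For GIP-GFP over Ngn3-negative it was -0.34 with no filter, -0.85 with equal totals, -0.44 with the most abundant transcript and -0.49 without failed genes. Members at least 2-fold lower in GIP-GFP than in Ngn3-negative numbered 4 with equal totals and 1 without failed genes, and those lower in Ngn3-TOMATO numbered 1 without failed genes, since Slc30a10 is then left out. With the most abundant transcript, the log2 ratio of Slc30a10 to Ngn3-negative was -5.04 in both reporter libraries, because that transcript is at 0 there, Slc30a4 was at -1.07 in Ngn3-TOMATO and -1.48 in GIP-GFP, and Slc30a9 was at 0.88 in GIP-GFP. Equal totals moved the median over all genes to -0.20 (Ngn3-TOMATO) and -0.13 (GIP-GFP) relative to the negative library. With a pseudocount of 5, genes at least 2-fold higher in Ngn3-TOMATO than in Ngn3-negative numbered 1493 in place of 2574, those in GIP-GFP 1784 in place of 2828, and between the reporter libraries 602 were higher and 667 lower in place of 1100 and 1198. The 1 library per group, and the 2 and 11 fragments of Slc30a8, limit what can be said of differences between mice and of that gene.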
